A study of Mus musculus with 59 samples.

Results

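The step across dusk compares medial prefrontal cortex collected at zeitgeber time 14 (ZT14) with cortex collected at ZT10, in male and female wild-type C57BL/6J mice. It uses 19 of the study's 59 RNA sequencing libraries, chosen by the zeitgeber time in their titles, with 10 libraries at ZT14 and 9 at ZT10. The study sampled homogenate cortex of adult males and females every 4 h around the day, and the remaining 40 libraries come from ZT2, ZT6, ZT18 and ZT22. ZT10 was represented by 5 male and 4 female libraries, and ZT14 by 5 male and 5 female libraries. The labels name no treatment and no altered allele in any group. By convention ZT0 is lights on and ZT12 lights off, so ZT10 lies late in the light phase and ZT14 early in the dark phase, but no light schedule is stated in the labels. Whether every library is a separate mouse is not stated either, and the animal numbers in the titles repeat within groups, so p-values reflect only the spread from library to library.

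Mice are nocturnal, and dusk is when they become active and when circulating corticosterone is near its daily high. Neuronal firing drives a rapid wave of transcription, in which immediate early genes such as Fos, Junb and Egr1 encode transcription factors and effector genes such as Arc and Nptx2 act at the synapse. The circadian clock runs alongside as a feedback loop in which the PER proteins repress their own activators, and Per1 and Per2 can also be induced directly by calcium and cAMP signalling and by glucocorticoids.

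Values below are log2 of a scaled read count plus 1, as deposited, and a difference is ZT14 minus ZT10 on that scale, fitted with sex and the run of 12 serial numbers in the titles as terms. A gene is said to have risen or fallen where its adjusted p was under 0.05 (limma, Benjamini-Hochberg over 4218 tested genes). The 4484 genes of the table are a part of the transcriptome, so counts speak only for genes in it. Recovered reads ran from 6472181 to 11458211 per library at ZT10 and from 8366855 to 13325019 at ZT14. Because 6 noncoding genes took most of them, all other genes shared 1009789 to 2368152 reads at ZT10 and 1294859 to 4253935 at ZT14. The share of those 6 genes was 78.2% ± 7.06 (SD, n = 9) at ZT10 and 78.1% ± 8.54 (SD, n = 10) at ZT14 (exact two-sided permutation test, p = 0.991).

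Across dusk, 4 genes rose and 1 fell. The genes that rose were Arc, which encodes a cytoskeletal protein that controls AMPA receptor number at synapses, Ier5l, an immediate early response gene, Junb, an AP-1 transcription factor, and Tsc22d3, which encodes GILZ, a leucine zipper protein induced by glucocorticoids. Nptx2, a secreted pentraxin that clusters AMPA receptors and is itself an activity-induced gene, fell. These 5 were 0.119% of the genes tested, 0.0948% higher and 0.0237% lower. The median difference over all tested genes was 0.01, and 51.4% of them lay above 0. At an unadjusted p under 0.05 there were 334 genes (7.92%), 172 higher (4.08%) and 162 lower (3.84%). In bulk tissue, a change in the number of cells of a type and a change in RNA per cell cannot be told apart.

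**Figure D1:**
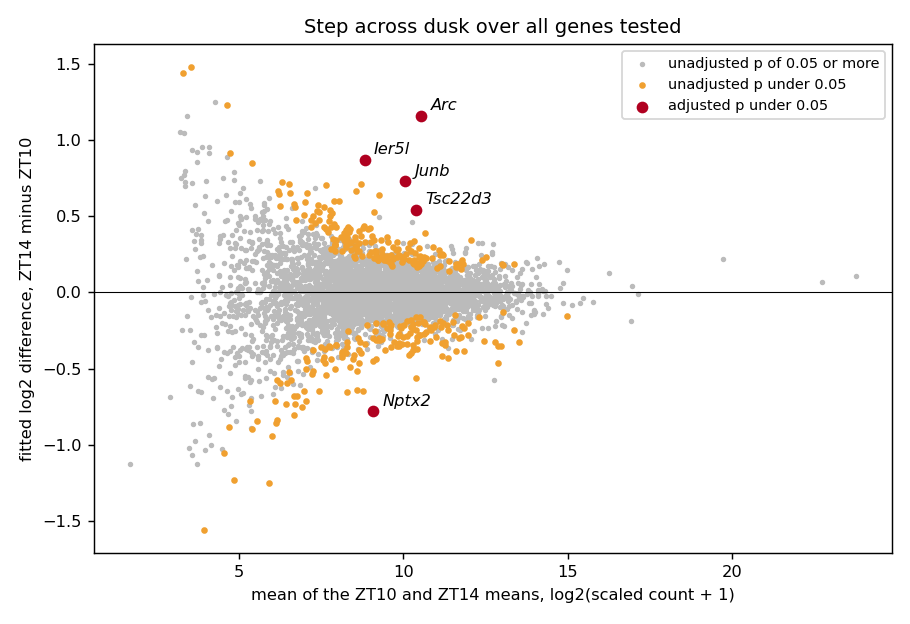
Each point is 1 of the 4218 genes tested, with the mean of its ZT10 and ZT14 log2 means on the horizontal axis and its fitted ZT14 minus ZT10 difference on the vertical axis. The 5 red genes have an adjusted p under 0.05, orange genes have only an unadjusted p under 0.05, and low genes scatter more widely than Arc, Ier5l, Junb, Tsc22d3 and Nptx2 do.

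The promoters of genes that passed in any comparison below are shown where the set of RefSeq windows used here (build GRCm38.p6) held one. That set held none for Arc, Nptx2 or Per2, so their promoters were not searched. Promoters are shown because the clock, CREB, AP-1, serum response, heat shock and glucocorticoid pathways each act through a known DNA element. Ier5l, Junb and Tsc22d3 passed in the step across dusk, Zfp189 in females alone and Serpinb8 only in the comparison of dusk with dawn. Each line gives the 250 bases before the annotated start, 5′ to 3′ on the gene's strand, with motif matches in capitals. Windows are Ier5l at chr2:30474200-30474449 (minus strand), Junb at chr8:84978749-84978998 (minus), the third of the 3 Tsc22d3 starts at chrX:140548572-140548821 (minus), Zfp189 at chr4:49520926-49521175 (plus) and Serpinb8 at chr1:107589756-107590005 (plus).
Ier5l: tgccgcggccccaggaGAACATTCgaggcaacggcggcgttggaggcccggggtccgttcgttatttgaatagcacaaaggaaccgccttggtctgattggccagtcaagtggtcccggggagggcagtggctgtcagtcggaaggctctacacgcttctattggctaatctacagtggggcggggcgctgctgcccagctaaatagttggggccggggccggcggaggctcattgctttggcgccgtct
Junb: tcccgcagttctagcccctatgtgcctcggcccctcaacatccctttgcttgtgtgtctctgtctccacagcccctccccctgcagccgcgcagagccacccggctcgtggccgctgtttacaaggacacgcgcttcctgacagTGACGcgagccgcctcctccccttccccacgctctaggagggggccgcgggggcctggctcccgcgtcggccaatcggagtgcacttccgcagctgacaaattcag
Tsc22d3: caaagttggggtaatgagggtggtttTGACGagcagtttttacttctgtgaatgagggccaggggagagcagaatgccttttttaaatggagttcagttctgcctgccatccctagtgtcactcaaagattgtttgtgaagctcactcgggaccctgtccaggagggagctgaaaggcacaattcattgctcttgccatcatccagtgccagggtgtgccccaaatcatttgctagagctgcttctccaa
Zfp189: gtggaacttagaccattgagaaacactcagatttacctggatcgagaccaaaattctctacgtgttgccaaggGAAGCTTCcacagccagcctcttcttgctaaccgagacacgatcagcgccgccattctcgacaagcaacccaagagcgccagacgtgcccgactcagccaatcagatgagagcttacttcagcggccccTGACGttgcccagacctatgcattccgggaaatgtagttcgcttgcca
Serpinb8: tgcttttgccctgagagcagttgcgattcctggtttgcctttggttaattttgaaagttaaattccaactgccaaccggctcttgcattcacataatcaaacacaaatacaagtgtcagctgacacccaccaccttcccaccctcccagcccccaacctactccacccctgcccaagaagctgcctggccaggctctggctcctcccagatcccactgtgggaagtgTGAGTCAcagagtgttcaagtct
The capitals mark TGACG, the core of the cAMP response element bound by CREB, in Junb, Tsc22d3 and Zfp189. They also mark GAANNTTC, only a short part of the heat shock element, in Ier5l and Zfp189, and TGANTCA, the AP-1 site, in Serpinb8.

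The 11 motifs were searched on both strands in the windows of all tested genes that had one, 4138 windows of 3178 genes. TGACG stood in 27.7% of them, so its presence in Junb, in Tsc22d3 at 224 bases before the start and in Zfp189 at 48 is common. GAANNTTC stood in 4.66% and TGANTCA in 3.89%. The other motifs were the E-box CACGTG (8.02%), the full element TGACGTCA (2.71%), which contains TGACG, the serum response element (7.23%), TAGGTCA, the core of the site for REV-ERB and ROR receptors (1.47%), GCGTGGGCG for EGR proteins (1.28%), the D-box TTATGTAA (0.435%), the glucocorticoid response element (0.266%) and the endoplasmic reticulum stress element (0.145%). None of these 8 patterns had a match in the 5 windows printed. The other Tsc22d3 windows, chrX:140542669-140542918 and chrX:140600523-140600772, held no match to any of the 11. Among genes that did not pass, the first Per1 window (chr11:69098699-69098948, plus strand) held CACGTG 166 bases before its start and TGACG, the second Per1 window held TGACG, and the Fos window held 2 copies of TGACG. A match is a stretch of letters and shows no binding.

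Arc (ENSMUSG00000022602, chromosome 15, 74669083 to 74672570 in GRCm38, minus strand) had the largest rise of the 4. Its log2 values ran from 9.35 through a median of 9.96 to 10.77 at ZT10, and from 10.67 through 11.07 to 11.70 at ZT14. The groups overlapped in 1 library on each side, ZT10 female replicate 2 and ZT14 male replicate 2. The means were 9.96 ± 0.39 (SD, n = 9) and 11.14 ± 0.36 (SD, n = 10), and the fitted rise was 1.16 ± 0.14 (SE), 2.23-fold (adjusted p = 0.000405, limma, Benjamini-Hochberg). Arc was higher at ZT14 in 9 of 9 pairs of libraries of the same sex and run. The pairs differed by 0.85 to 1.78 in males and by 0.57 to 1.84 in females.

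Ier5l (ENSMUSG00000089762, chromosome 2, 30471537 to 30474219, minus strand), whose paralogue Ier5 takes part in the heat shock response, separated the groups fully. Its values were 7.89, 8.37 and 8.91 as lowest, median and highest at ZT10, against 8.96, 9.22 and 9.61 at ZT14. Every ZT14 library therefore lay above every ZT10 library. It was the only gene of the 4218 to do so (0.0237%), and no gene did so in the other direction. The fitted rise was 0.87 ± 0.13 (SE), 1.83-fold (adjusted p = 0.0017, limma, Benjamini-Hochberg), and it was higher in 9 of 9 pairs, by 0.25 to 1.52. With libraries scaled by all reads, the value was 0.81 and the call was lost (adjusted p = 0.353, limma, Benjamini-Hochberg).

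Junb (ENSMUSG00000052837, chromosome 8, 84974484 to 84978718, minus strand) had lowest, median and highest values of 9.34, 9.48 and 10.42 at ZT10 and of 10.17, 10.46 and 10.68 at ZT14. The ZT14 libraries were the tighter group, with an SD of 0.18 (n = 10) against 0.38 (n = 9), and 2 ZT10 libraries, female replicate 2 and male replicate 3, reached into their range. The rise was 0.73 ± 0.11 (SE), 1.66-fold (adjusted p = 0.00361, limma, Benjamini-Hochberg). It was higher in 9 of 9 pairs, although the female pair of run 2 differed by only 0.05. The call was lost with libraries scaled by all reads (0.67, adjusted p = 1) and without replicate 1 of every group (0.71, adjusted p = 0.129, both limma, Benjamini-Hochberg). Of the exonic bases of Junb, 7.52% lie opposite Prdx2 on the other strand, and the strand setting of the counting is not given in the sources used here.

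Tsc22d3 (ENSMUSG00000031431, chromosome X, 140539528 to 140600659, minus strand) rose least of the 4. It ran from 9.46 through 10.12 to 10.66 at ZT10 and from 10.02 through 10.60 to 11.14 at ZT14, and 5 libraries of each group lay inside the range of the other. The rise was 0.54 ± 0.11 (SE), 1.46-fold (adjusted p = 0.0382, limma, Benjamini-Hochberg), with 9 of 9 pairs higher, by 0.06 to 1.07. This call was the least firm of the 5. It was lost in 13 of the 19 refits that left out 1 library, at an adjusted p of up to 0.207 (limma, Benjamini-Hochberg), and held without ZT10 male replicate 3, ZT10 female replicate 4, ZT14 male replicate 2 or ZT14 female replicate 3, 4 or 5.

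Nptx2 (ENSMUSG00000059991, chromosome 5, 144545902 to 144557478, plus strand) moved the other way. Its lowest, median and highest values were 8.61, 9.44 and 9.92 at ZT10 and 8.04, 8.76 and 9.41 at ZT14. The ranges overlapped over 3 ZT10 and 6 ZT14 libraries, yet within runs it was lower at ZT14 in all 9 pairs, with differences from -0.09 to -1.39. The fitted difference was -0.78 ± 0.14 (SE), 1.71-fold lower (adjusted p = 0.0137, limma, Benjamini-Hochberg). The call was lost without ZT10 male replicate 2 (adjusted p = 0.0521), ZT10 female replicate 2 (0.0593), ZT10 female replicate 3 (0.0629) or ZT14 male replicate 3 (0.0569, all limma, Benjamini-Hochberg). Without the run as a block it was also lost (adjusted p = 0.477, limma, Benjamini-Hochberg), as was Tsc22d3 (0.975), which left 3 genes called.

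**Figure D2:**
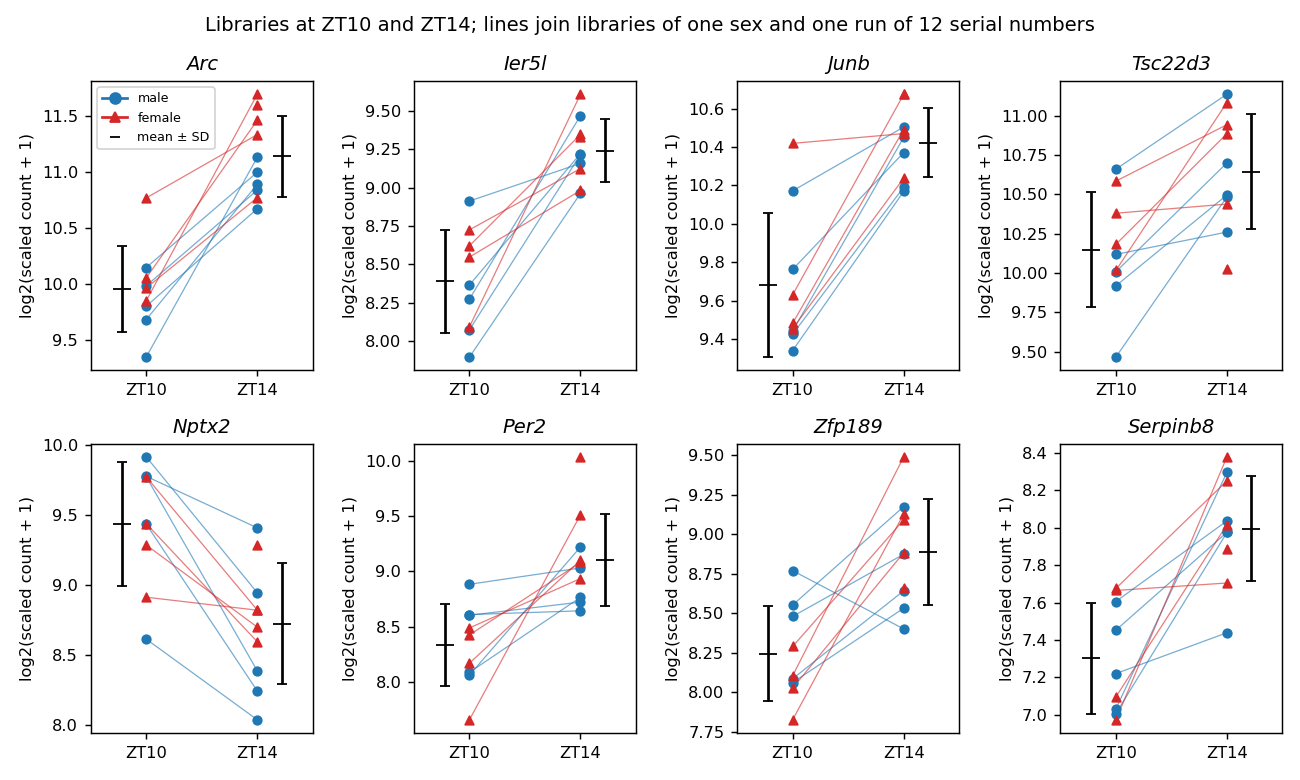
Log2 values of individual genes at ZT10 and ZT14, with each line joining the 2 libraries of the same sex and run, circles for males, triangles for females and the mean ± SD of each time beside them. Arc, Ier5l, Junb and Tsc22d3 slope upward and Nptx2 downward in all 9 pairs.

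Over all 4218 genes, 17 were higher at ZT14 in all 9 pairs (0.403%) and 7 were lower in all 9 (0.166%). Beside the 4 that rose, the 17 included Serpinb8, an intracellular serine protease inhibitor, and Per2, the clock repressor, both close to the threshold. Per2 (ENSMUSG00000055866, chromosome 1, 91415982 to 91459324, minus strand) ran from 7.66 through 8.43 to 8.88 at ZT10 and from 8.64 through 9.06 to 10.04 at ZT14, with only ZT10 male replicate 5 inside the ZT14 range. Its difference was 0.71 ± 0.15 (SE) (adjusted p = 0.0823, limma, Benjamini-Hochberg). Serpinb8 ran from 6.97 to 7.68 at ZT10 and from 7.44 to 8.38 at ZT14, on 20 to 155 reads per library, with a difference of 0.70 ± 0.15 (SE) (adjusted p = 0.0743, limma, Benjamini-Hochberg). Zfp189, a zinc finger transcription factor gene, differed by 0.67 ± 0.14 (SE) in 8 of 9 pairs (adjusted p = 0.0671, limma, Benjamini-Hochberg).

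Of the core clock list, 8 of 22 genes were in the table, and none passed in the dusk step (2 of 8 at an unadjusted p under 0.05, both higher). The list's median difference was 0.14. The period genes lay above 0. Per1 went from 10.01 ± 0.21 (SD, n = 9) to 10.40 ± 0.39 (SD, n = 10), a difference of 0.33 ± 0.10 (SE) in 7 of 9 pairs (adjusted p = 0.425, limma, Benjamini-Hochberg). Per3 differed by 0.24 ± 0.14 (SE). The REV-ERB repressor genes gave -0.18 ± 0.11 for Nr1d1 and 0.12 ± 0.07 for Nr1d2 (SE). Rora, an activator at the same sites, gave -0.14 ± 0.16 (SE). Arntl2, a paralogue of the clock activator BMAL1, was low, at 4 to 29 reads per library. Among 6 clock output genes, Tsc22d3 was the only one to rise, and the clock-controlled transcription factor gene Hlf differed by 0.04 ± 0.09 (SE).

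Among 15 immediate early transcription factor genes tested, Ier5l and Junb rose and none fell. A further 4, Zfp189, Fos, Per1 and Egr2, were higher at an unadjusted p under 0.05, 11 of the 15 lay above 0, and the median was 0.19. Fos, the partner of JUN proteins in AP-1, went from 7.72 ± 0.56 (SD, n = 9) to 8.38 ± 0.40 (SD, n = 10). Its difference was 0.60 ± 0.17 (SE) in 8 of 9 pairs (adjusted p = 0.369, limma, Benjamini-Hochberg). Of the early growth response genes, Egr2 gave 0.72 ± 0.28 (SE), higher in 7 of 9 pairs. Egr1 gave 0.21 ± 0.15 (SE), but it was higher in only 4 of 9 pairs, with a median pair difference of -0.08. Jun gave 0.16 ± 0.09 and Fosb -0.19 ± 0.22 (SE), so the values of AP-1 members ranged from Junb, which rose, to Fosb, slightly below 0. The choice to name Fos, Egr1, Egr2, Jun and Fosb was made with their values in view.

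The effector genes that neurons induce with activity split as well. Of 13 tested, Arc rose, Nptx2 fell, 9 lay above 0 and the median was 0.05. Arl4d, a small GTPase gene, gave 0.59 ± 0.25, and Gadd45b, which takes part in activity-induced DNA demethylation, gave 0.42 ± 0.24 (SE). Homer1, the postsynaptic scaffold gene, gave 0.05 ± 0.07 (SE) with all its transcripts counted together. Of 5 feedback inhibitors of MAP kinase signalling none passed. Dusp5, a nuclear ERK phosphatase, gave 0.65 ± 0.21 (SE) in 8 of 9 pairs, with 22.1% of its exonic bases opposite another gene, and Dusp8, which acts on JNK, gave -0.22 ± 0.11 (SE).

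Of 7 genes induced by glucocorticoids only Tsc22d3 rose, and the list's median was 0.29. Per1 and Ddit4, an inhibitor of mTORC1, both gave 0.33, with SE of 0.10 and 0.14. Pdk4, which restrains pyruvate oxidation, gave -0.43 ± 0.20 (SE). Its female pair of run 4 differed by -2.21, against a median pair difference of -0.13, and 3 of 9 pairs lay above 0. In the list of mTOR, insulin and FoxO signalling none of 19 passed (2 higher and 3 lower at an unadjusted p under 0.05, with a median of 0.06). Sesn1, which restrains mTORC1, gave 0.34 ± 0.09 (adjusted p = 0.279) and Foxo1, the insulin-regulated transcription factor, -0.51 ± 0.16 (SE; adjusted p = 0.44, both limma, Benjamini-Hochberg).

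**Figure D3:**
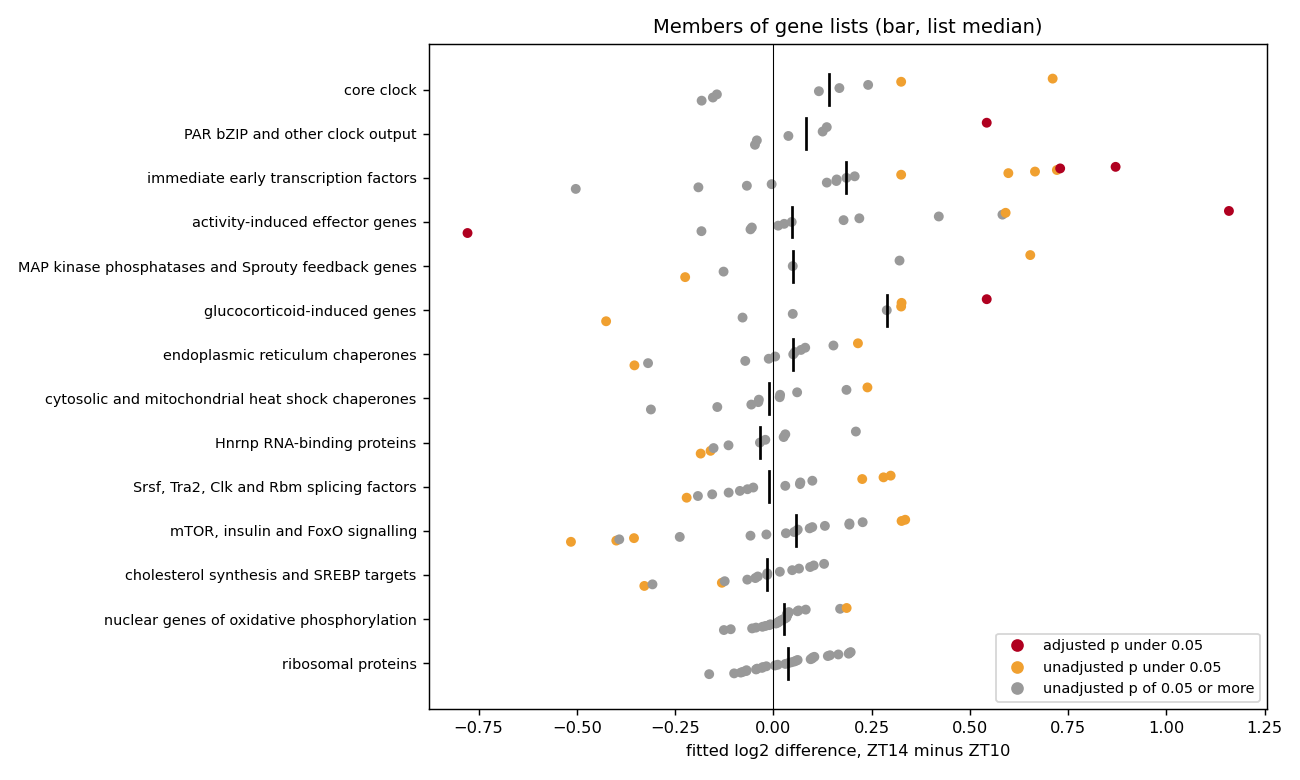
Fitted ZT14 minus ZT10 differences of the tested members of each gene list, 1 point per gene, on the log2 scale. Members that passed are the red points, in the lists of immediate early, effector, clock output and glucocorticoid-induced genes, and black bars mark the list medians, 0.14 for the core clock.

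None of the genes of the remaining pathways passed (limma, Benjamini-Hochberg), nor with limma voom, and their medians lay between -0.10 and 0.11, apart from Slc29a2, the only member of the sleep-related receptor list in the table (-0.18). At an unadjusted p under 0.05 no such list held more than 4 genes, the most among 14 splicing factors with 3 higher and 1 lower. Among 11 chaperones of the endoplasmic reticulum, Calr, a lectin chaperone, gave -0.35 ± 0.11 and Hspa5, which encodes BiP, 0.22 ± 0.08 (SE). Of 10 cytosolic and mitochondrial heat shock chaperones, Dnajb1, an HSP70 co-chaperone, gave 0.24 ± 0.07 (SE) in 9 of 9 pairs (adjusted p = 0.369, limma, Benjamini-Hochberg), and 5 of the 10 lay above 0. The 14 splicing factors ran from -0.22 to 0.30, with 0.28 ± 0.09 for Srsf7, 0.30 ± 0.10 for Srsf10 and 0.23 ± 0.08 for Rbm5 (SE). Srsf7 gave 0.49 ± 0.11 in males and 0.03 ± 0.12 in females (SE), a difference that did not pass (adjusted p = 0.508, limma, Benjamini-Hochberg). In the separate list of 9 Hnrnp genes, Hnrnpdl gave -0.18 ± 0.07 and Hnrnpc -0.16 ± 0.06 (SE), and 3 of the 9 lay above 0. Scd1, a fatty acid desaturase, gave -0.33 ± 0.14 and Hmgcs1, an enzyme of the cholesterol pathway, -0.13 ± 0.06 (SE). Structural groups had medians close to 0, at 0.03 for 28 nuclear genes of oxidative phosphorylation, 0.04 for 29 ribosomal protein genes, -0.01 for 8 genes of GABA receptors, transport and synthesis and -0.03 for 14 potassium channel genes. At an unadjusted p under 0.05 these 4 groups held 1, 0, 0 and 1 genes.

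Markers of cortical cell types were set beside these values. The 6 glutamatergic markers had a median difference of 0.01 and the 10 GABAergic markers one of -0.11. The summed level of the glutamatergic markers, as scaled counts, ran from 30843.9 to 46546.9 at ZT10 and from 32355.5 to 49283.5 at ZT14. All 4 astrocyte markers lay below 0, with a median of -0.26. Their sum ran from 13924.6 through a median of 16442.4 to 18846.5 at ZT10, and from 6225.99 through 15479.1 to 20475.8 at ZT14. The 3 microglial markers had a median of -0.14. None of these passed, and no marker in the table was at 0 in all libraries. The part of cell makeup in the 5 called genes was not tested. Neuronal markers were present at both times, as the labelled tissue has, and Penk and Tac1, which mark striatal neurons but also some cortical interneurons, had a median of -0.21.

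In each sex alone the 5 called genes kept their sign, with wider errors. Males had no gene called (521 at an unadjusted p under 0.05, 12.4%, and none called by limma voom). Females had 210 at an unadjusted p under 0.05 (4.98%) and 1 called, Zfp189 (0.0237%), which limma voom did not call. The fitted step of Arc was 1.11 ± 0.20 in males and 1.21 ± 0.21 in females (SE; adjusted p = 0.0695 and 0.0532, limma, Benjamini-Hochberg), so neither passed alone. The values were 0.90 ± 0.17 and 0.83 ± 0.19 for Ier5l, 0.71 ± 0.16 and 0.76 ± 0.17 for Junb, and -0.90 ± 0.19 and -0.64 ± 0.20 for Nptx2 (SE). Zfp189 rose by 1.05 ± 0.17 in females (adjusted p = 0.0228) and gave 0.33 ± 0.16 in males (SE; adjusted p = 0.401, both limma, Benjamini-Hochberg). The difference between the sexes for Zfp189, 0.72 ± 0.23 (SE), did not pass (adjusted p = 0.496, limma, Benjamini-Hochberg). Per2 gave 0.43 ± 0.19 in males and 1.04 ± 0.21 in females (SE), a difference that did not pass (adjusted p = 0.581, limma, Benjamini-Hochberg).

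No gene of the 4218 had a step that differed between the sexes by limma with Benjamini-Hochberg adjustment, with 356 at an unadjusted p under 0.05 (8.44%) and none by limma voom. The number called depended on the setting, with 428 genes when libraries were scaled by all reads. The first 2 residual components as covariates gave 210, but these components lower the residual spread by construction, so that number shows no difference between the sexes. The male count rested on 1 library. ZT10 male replicate 3 had a score of 27.4 on the first principal component of the 19 libraries, against -29.3 to -4.36 in the other ZT10 males. The other 3 libraries of its run also scored high, from 15.6 to 21.1, and the run was a term of the fit. Without ZT10 male replicate 3, 150 genes were called in males, 82 higher and 68 lower, and these included Arc, Ier5l, Junb, Tsc22d3 and Nptx2. The single female call also rested on individual libraries, since the count was 0 when any 1 of 6 female libraries was left out, ZT10 replicates 1, 3 and 4 and ZT14 replicates 1, 2 and 3. The noncoding share went from 74.7% ± 6.12 (SD, n = 5) to 81.0% ± 4.39 (SD, n = 5) in males (exact two-sided permutation test, p = 0.127). In females it went from 82.5% ± 6.08 (SD, n = 4) to 75.2% ± 11.2 (SD, n = 5) (exact two-sided permutation test, p = 0.333). Recovered reads ran from 6472181 to 8257518 in ZT10 males and from 8366855 to 13325019 in ZT14 males, without overlap (exact two-sided permutation test, p = 0.00794, adjusted to 0.0714 by Benjamini-Hochberg over 9 tests of depth and composition). In both sexes together the depth gave p = 0.0547 (adjusted 0.246, exact permutation test). These totals include the 6 noncoding genes. Reads of all other genes averaged 1.907e+06 at ZT10 and 1.832e+06 at ZT14 in males (p = 0.754, exact two-sided permutation test). For those reads both sexes together gave p = 0.283 and females p = 0.270 (exact two-sided permutation tests). The part of depth in the called genes was not tested. Scaling by all reads instead moved the median of all genes to -0.40 in males and 0.33 in females, so the sexes are compared here on the deposited scale.

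The opposite transition, from ZT22 to ZT2 across dawn, compares 20 other libraries. To ask whether the steps differ, the dawn step and the difference were fitted together on all 39 libraries of ZT10, ZT14, ZT22 and ZT2. The dawn values therefore share their sex and run terms and their residual spread with the dusk libraries. No gene was called in the dawn step by limma with Benjamini-Hochberg adjustment, with 210 at an unadjusted p under 0.05 (4.98%), and none by limma voom (197 unadjusted). As signed differences, the dusk step lay above the dawn step in 6 genes (0.142%) and below it in none. These were Arc, Ier5l, Junb and Tsc22d3, together with Per2 and Serpinb8. Each of the 6 had a fitted value below 0 at dawn, from -0.27 ± 0.12 for Junb to -0.58 ± 0.15 for Arc (SE). A gene that rises at dusk and falls by as much at dawn can pass this test, so it does not compare the sizes of the steps. It also contains the dusk step, so it is no separate support for the 4 genes that rose. The dusk minus dawn difference was 1.75 ± 0.21 for Arc (adjusted p = 2.42e-06) and 1.34 ± 0.18 for Ier5l (1.54e-05), then 1.15 ± 0.22 for Per2 (0.00455) and 1.02 ± 0.17 for Junb (0.00059, SE, limma, Benjamini-Hochberg). It was 0.99 ± 0.22 for Serpinb8 (adjusted p = 0.0498) and 0.88 ± 0.19 for Tsc22d3 (0.03, SE, limma, Benjamini-Hochberg). Those last calls were the weakest, and of 39 refits without 1 library each, 27 lost Serpinb8 (adjusted p up to 0.119) and 16 lost Tsc22d3 (up to 0.0881, limma, Benjamini-Hochberg), while the other 4 genes were called in all 39. Over 19 further alternatives Serpinb8 was lost in 10, Tsc22d3 in 9, Per2 in 3 and Ier5l and Junb in 1 each, and scaling by all reads left only Arc called. Nptx2 differed by -0.76 ± 0.23 (SE; adjusted p = 0.383, limma, Benjamini-Hochberg), with a dawn value near 0 and an SE of 0.16.

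**Figure D4:**
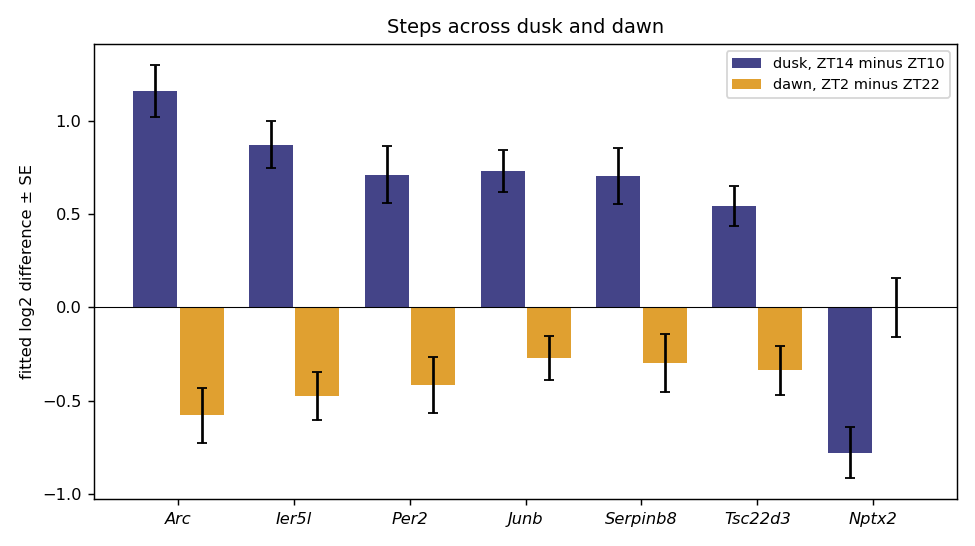
Fitted log2 differences across dusk (ZT14 minus ZT10, 19 libraries) and across dawn (ZT2 minus ZT22, 20 libraries), with bars from 0 and error bars of 1 SE. The dusk values come from the fit of the dusk libraries alone, and the dawn values from a fit that also held the dusk libraries. The 6 genes whose steps differed are above 0 at dusk and below 0 at dawn, while Nptx2 is below 0 at dusk and near 0 at dawn.

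The level at ZT14 was set in the course of the day without further tests. Ier5l had its highest mean of the 6 times at ZT14, 9.24 ± 0.20 (SD, n = 10), and was at 8.81 ± 0.37 (SD, n = 10) by ZT18. Junb and Tsc22d3 were also highest at ZT14, but their ZT18 means, 10.29 ± 0.30 and 10.47 ± 0.30 (SD, n = 10), lay within 1 SD. Arc and Per2 were higher still at ZT18, at 11.47 ± 0.45 and 9.31 ± 0.45 (SD, n = 10), within the spread of the ZT14 libraries. Nptx2 had its lowest mean at ZT14, 8.72 ± 0.43 (SD, n = 10), and stood at 9.14 ± 0.34 (SD, n = 10) at ZT18, near its ZT22 and ZT2 means of 9.18 and 9.17.

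**Figure D5:**
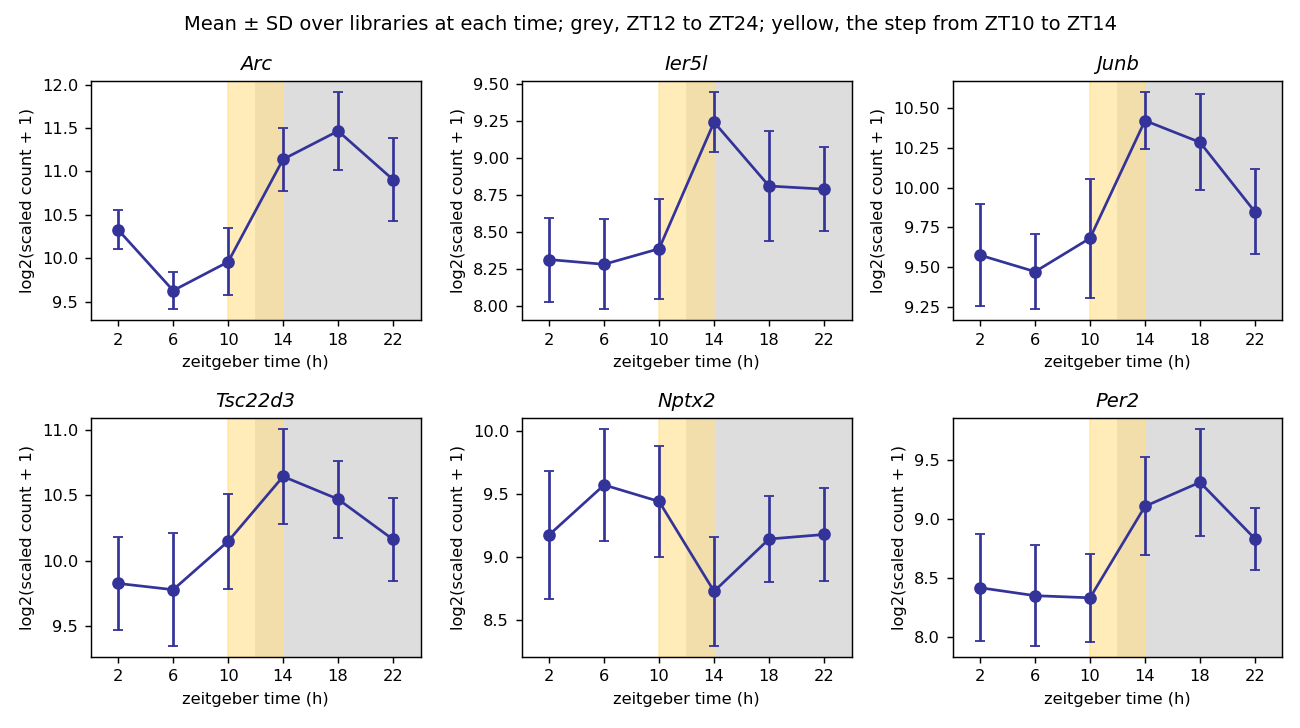
Log2 values by zeitgeber time over all 59 libraries, with points for the mean of each time, bars of 1 SD, grey for ZT12 to ZT24 and yellow for the step from ZT10 to ZT14. Ier5l, Junb and Tsc22d3 have their highest mean at ZT14, Arc and Per2 theirs at ZT18, and Nptx2 its lowest at ZT14.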

How the data were processed

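RNA from homogenate cortex was extracted with a Qiagen micro kit and made into stranded total RNA libraries with a Takara kit, per the labels' protocols. FastQC, HTSeq, DESeq2 and the build GRCm38 are named, per the submitters' processing notes, and the aligner, annotation and strand setting are not given in the sources used here. The deposited values are log2 of a scaled count plus 1, which was read from the values. They gave whole reads in each library, within 0.000144 of a whole number, which served for depth and filters.

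Genes with at least 10 reads in at least 9 libraries were tested. The planned test for counts was replaced by limma 3.58.1 (R 4.3.3, trend and robust fit) on the deposited log2 values, since the table holds these and not counts. Terms were time, sex and the run of 12 serial numbers, which also numbers the replicates. The labels do not call a run a batch. Libraries of different groups in a run deviated together by a mean r of 0.145 (-0.2 to 0.62, 27 pairs), against -0.0367 across runs (108 pairs). No 2 libraries of a group were copies, since the chi-square per degree of freedom was 19.7 or more.

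Benjamini-Hochberg adjustment covered all genes tested, at a threshold of 0.05. Library composition was compared by exact permutation tests. On simulated data the dusk step recovered 50% of 100 changes of size 0.5 and 81% of 100 of size 1, with 3 false calls. The simulation held far more changed genes than the 5 called here, which eases the adjusted threshold. It also drew each gene independently, whereas the first principal component held 28.3% of the variance of the 19 libraries. These shares are therefore no estimate of power in the real comparison. The members, 37 gene lists (764 genes, 259 tested) and tests were chosen with earlier results of these data known. Named genes were all measured core clock genes, called genes, the 3 members of smallest p (or fewer) from every other list and called genes of the other contrasts, without predicted genes, plus 12 chosen after their values were seen. Some genes that this rule selects are not reported here. Symbols and positions came from GENCODE release M21, which matched 4465 of 4484 genes. Alternatives covered scaling, filters, blocks, covariates, the tool and each library left out.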

Additional observations from a re-analysis of the deposited data

Results flagged for a closer look

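For 6 genes the signed step across dusk differed from that across dawn by a test of the difference itself (limma, Benjamini-Hochberg). A rise at dusk with an equal fall at dawn can pass it, so step sizes were not compared. The differences were 1.75 for Arc, 1.34 for Ier5l, 1.15 for Per2, 1.02 for Junb, 0.99 for Serpinb8 and 0.88 for Tsc22d3 on the log2 scale. Of these, Serpinb8 lay nearest the threshold (adjusted p = 0.0498, limma, Benjamini-Hochberg).

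Of 28 groups of 9 or 10 libraries examined, 3 held a library far from the others, where chance gives about 5%. Per3 in ZT10 female replicate 1 was the lowest of its group at 7.88, and Fos in ZT10 male replicate 1 was the lowest at 6.43. At ZT14, Fos in female replicate 5 was the highest, at 9.37.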

How the results depend on the processing

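Over 19 alternatives, the call for Arc held in all, for Ier5l in 18, Junb in 17, Nptx2 in 13 and Tsc22d3 in 7, each in its direction. Leaving out 1 library gave 3 to 6 genes called, 3 without ZT10 male replicate 2, ZT10 female replicate 2 or 3 or ZT14 male replicate 3. Leaving out a replicate number (1 to 4, chosen after the data were seen) gave 2 called without replicate 1, all higher, and 3 without replicate 2. Genes called lower ranged from 0 to 2 on leaving out 1 library. With no replicate block 3 genes were called, all higher and 0 lower, and 1 in males. With the block as a random effect there were 2 in males and 3 in females. With all 59 libraries 0 were lower and 2 were called in males. Without the trend and robust fit 3 were called, 0 lower, and 1 in males. With the noncoding share as a covariate 8 were called, 7 higher, and 3 in males. Scaling by all reads left 1, higher, and 0 lower, with 34.5% of differences above 0, and gave 62 in males, 3 in females, 428 for the difference between sexes and 1 for dusk minus dawn. With the first 2 residual components as covariates there were 232 called, 110 of them higher. That setting gave 411 in males, 28 in females, 210 between sexes and 44 for dusk minus dawn. The components were taken from the residuals of the same fit, so they left the fitted differences unchanged and lowered the residual spread by construction. Its higher counts therefore cannot be read as more genes changing. Females had 2 without the filter, 0 with limma voom and 0 without the libraries numbered 49 to 60, and 0 to 3 on leaving out libraries. Males had 0 to 150 on leaving out 1 library, 7 without ZT14 male replicate 3, and 154 without replicate 3. Without 3 female libraries that stood apart, ZT10 replicate 3 and ZT14 replicates 4 and 5, an alternative chosen after the data were seen, males had 10 and females 0. Of 77 named genes 6 changed sign. Scaling by all reads gave -0.017 for Homer1 and -0.026 for Hlf. On leaving out 1 library or replicate number, Hlf gave -0.001 to 0.105, Hspa1a -0.683 to 0.05, Rmrp -0.022 to 0.348, Arntl2 -0.385 to 0.03 and Hsp90aa1 -0.001 to 0.29. Genes with few reads per library, such as Hspa1a (2 to 94) and Arntl2, can show only large differences at this depth.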

Other observations

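Outside the lists, Itgam, a microglial and myeloid integrin gene, went from 8.90 ± 0.37 (SD, n = 9) to 8.29 ± 0.49 (SD, n = 10), a difference of -0.64 ± 0.16 (SE) in the direction of 8 of 9 pairs. Rgma, which encodes an axon repulsion molecule, gave -0.65 ± 0.17 (SE), also lower in 8 of 9 pairs. Neither passed (adjusted p = 0.251 and 0.279, limma, Benjamini-Hochberg). Both were chosen after their values were seen. Of 6 neuropeptide genes tested none passed, 2 lay above 0 and the median was -0.10, with values up to 0.30. The 3 of smallest p, Crh, Penk and Vip, follow. Crh and Penk gave -0.45 ± 0.27 and -0.42 ± 0.26 (SE), and Vip -0.19 ± 0.12, lower at ZT14 in 7, 6 and 7 of 9 pairs. Penk gave -1.0 ± 0.29 in males and 0.25 ± 0.31 in females (SE). C1ql1, the only marker of oligodendrocyte precursors in the table, gave -1.25 and did not pass, with only its unadjusted p under 0.05 (limma). Its level as scaled counts lay between 65.1 and 130.01 at ZT10 and between 1.79 and 111.7 at ZT14. The lowest of these, 1.79, was a single read in ZT14 female replicate 4, so the gene lay near the floor there.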
